A study of Mus musculus with 4 samples.

Results

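The genes described here are 10 genes of red blood cells and iron supply, examined library by library in leukemia-initiating cells (LICs): the adult globin genes Hba-a1, Hba-a2, Hbb-bs and Hbb-bt, and Alas2, Tfrc, Epor, Gata1, Klf1 and Slc4a1. They were chosen by name, and 9 of the 10 had an entry among the 27179 genes of the deposited table. Hbb-bt had none. The 4 libraries came from bone marrow LICs of C57BL/6 background, labelled LSC and 6 weeks of age, of which 2 were labelled wild type (WT) and 2 CD274-/- (CD274-null). CD274 is programmed death ligand 1, a surface protein that restrains T cells. In both groups, lineage-negative fetal liver cells were infected with a retrovirus carrying the MLL-AF9 fusion oncogene and YFP and were transplanted into lethally irradiated mice, and Mac-1+/c-Kit+ cells were sorted by flow cytometry. Which host or donor blood cells other than the leukemia remained in the marrow is not given in the sources used here. The transplantation round and the number of mice behind each library are not given in the sources used here, so p-values measure only the spread between these 2 libraries per group, which may be technical.

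Hemoglobin carries oxygen as a tetramer of α- and β-globin chains, each holding a heme group. Red cell precursors make it in large amounts: transferrin receptor brings in iron, Alas2 starts heme synthesis, Gata1 and Klf1 switch the erythroid genes on, and erythropoietin acting through Epor keeps the cells alive. Myeloid cells do not as a rule make hemoglobin, but dividing cells of every kind take up iron through Tfrc.

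The globin genes lie in pairs of near-identical copies, and coding stretches of both pairs are shown to let the copies be compared. In GENCODE M21 (GRCm38), the coding sequences of Hba-a1 and Hba-a2 are each 426 bases long, differ at 1 position (381 from the start codon) and share 331 of 377 windows of 50 bases, about 1 read length. Those of Hbb-bs and Hbb-bt are each 441 bases long, differ at position 417 and share 367 of 392 windows. The last 120 coding bases before the stop codon follow, 5′ to 3′, with the differing base in capitals. They are taken from chr11:32284269-32284388 (plus strand, exonic) for Hba-a1, chr11:32297086-32297205 (plus) for Hba-a2, chr7:103826668-103826787 (minus) for Hbb-bs and chr7:103812659-103812778 (minus) for Hbb-bt.
Hba-a1: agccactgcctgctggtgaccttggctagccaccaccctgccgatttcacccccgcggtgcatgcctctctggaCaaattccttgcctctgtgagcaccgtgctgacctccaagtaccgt
Hba-a2: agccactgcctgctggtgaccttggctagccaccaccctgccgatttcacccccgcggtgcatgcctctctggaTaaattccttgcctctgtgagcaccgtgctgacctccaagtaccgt
Hbb-bs: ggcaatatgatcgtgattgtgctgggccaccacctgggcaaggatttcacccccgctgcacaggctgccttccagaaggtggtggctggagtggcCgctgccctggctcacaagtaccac
Hbb-bt: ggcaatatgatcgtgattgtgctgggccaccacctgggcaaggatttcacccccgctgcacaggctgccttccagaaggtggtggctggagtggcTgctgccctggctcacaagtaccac
Across whole transcripts, Hba-a1 shared 67.5% of its windows with Hba-a2, Hba-a2 shared 86.9% of its own with Hba-a1, and Hbb-bs shared 65.8% of its own with Hbb-bt. How reads with more than 1 match were counted is not given in the sources used here. The division of FPKM between the members of a pair is therefore uncertain.

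The highest values of Hba-a1, Hba-a2, Hbb-bs, Alas2 and Klf1 were all in the same library. From these genes, the promoters of Hba-a1, Hbb-bs and Alas2 are shown as examples. They are the 250 bases before the RefSeq start of each gene (GRCm38.p6), with matches to AGATAA or TGATAA (the letters that GATA factors read), CCACACCC (a KLF1 motif), CCAAT and TATAAA in capitals on either strand, so that TTATCT and TTTATA are the reverse complements of AGATAA and TATAAA. The windows are chr11:32283422-32283671 (plus strand) for Hba-a1, chr7:103827929-103828178 (minus) for Hbb-bs and chrX:150547167-150547416 (plus) for Alas2.
Hba-a1: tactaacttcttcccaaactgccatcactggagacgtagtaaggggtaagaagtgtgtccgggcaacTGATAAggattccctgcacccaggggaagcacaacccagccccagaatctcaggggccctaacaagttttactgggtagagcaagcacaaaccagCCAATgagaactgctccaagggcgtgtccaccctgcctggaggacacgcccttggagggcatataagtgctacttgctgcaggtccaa
Hbb-bs: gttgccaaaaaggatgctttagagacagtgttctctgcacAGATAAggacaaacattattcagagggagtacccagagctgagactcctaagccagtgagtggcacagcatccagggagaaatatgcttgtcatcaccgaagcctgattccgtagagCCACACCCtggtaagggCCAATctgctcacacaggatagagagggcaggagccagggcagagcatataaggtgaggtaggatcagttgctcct
Alas2: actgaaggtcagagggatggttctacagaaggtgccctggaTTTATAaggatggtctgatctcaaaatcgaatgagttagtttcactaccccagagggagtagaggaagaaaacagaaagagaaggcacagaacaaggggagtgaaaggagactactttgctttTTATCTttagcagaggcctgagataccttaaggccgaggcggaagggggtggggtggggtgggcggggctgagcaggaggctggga
A promoter was found for 9 of the 10 genes. AGATAA or TGATAA stood in those of 6 genes, Hba-a1, Hba-a2, Hbb-bs, Alas2, Epor and Klf1, against 16.6% of 32851 promoters of the same length. CCACACCC stood in that of Hbb-bs alone (3.20% of all promoters). CCAAT stood in those of Hba-a1, Hba-a2, Hbb-bs, Hbb-bt, Klf1 and Tfrc (33.8%) and TATAAA in those of Alas2 and Hbb-bt (12.4%). These matches describe letters in a window and not bound sites.

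The direction of every comparison of CD274-null with WT rests on the labels. Cd274 itself did not separate the libraries: its FPKM, a fragment count scaled to gene length and library depth, was 2.80 and 0.945 under the WT label against 1.43 and 2.29 under the other. Its log2 fold change was 0.09 (adjusted p = 0.955, limma with Benjamini-Hochberg adjustment). Where 4 values of a gene are listed without library names below, they stand in the order WT replicate 1, WT replicate 2, CD274-null replicate 1 and then CD274-null replicate 2. Since FPKM values of 1 gene are whole multiples of what 1 read is worth, reads could be recovered, and they summed to 8285063 to 10968851 per library. All 12 markers of the labelled Mac-1+/c-Kit+ myeloid cells were measured in the test; Itgam (Mac-1) had an FPKM of 100.2 to 174 and Kit of 6.59 to 19.5.

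The transcripts of Hba-a1, Hba-a2 and Hbb-bs were found mostly in 1 library, WT replicate 2, were low in 2 others and were at 0 in CD274-null replicate 2. Hba-a1 (NCBI gene 15122, chr11:32283672-32284486), an α-globin gene, had an FPKM of 0.928 in WT replicate 1 but 18.1 in WT replicate 2, with 0.809 in CD274-null replicate 1 and none in its partner. These values rest on 6, 103, 4 and 0 reads. WT replicate 2 was therefore 19.5 times as high as WT replicate 1 (95% exact interval of the counts, 8.66 to 54.4), a distance within the WT group. Against CD274-null replicate 1 it was 22.4 times as high (8.48 to 83.6), and against CD274-null replicate 2, with a floor of 3 reads in that library, at least 33.6-fold higher. These intervals and all intervals on reads below cover counting error only.

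Hba-a2 (NCBI gene 110257, chr11:32296492-32297310) is the other α-globin gene. Its FPKM was 0.154, 9.42, 0.402 and 0, from 1, 54, 2 and 0 reads, so that WT replicate 2 again stood alone. WT replicate 2 was 23.5 times as high as CD274-null replicate 1 (6.19 to 199) and 61.4 times as high as WT replicate 1, where 1 read leaves an interval of 10.6 to 2468. Hbb-bs (NCBI gene 100503605, chr7:103826523-103827928), a β-globin gene of the haplotype that C57BL/6 mice carry, had an FPKM of 0.947, 26.9, 3.01 and 0 across the libraries, from 7, 175, 17 and 0 reads. It was 28.4 times as high in WT replicate 2 as in WT replicate 1 (13.5 to 71.7), 8.94 times as high as in CD274-null replicate 1 (5.43 to 15.7) and at least 57.0-fold higher than in CD274-null replicate 2.

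The table also listed Hbb-b1 (NCBI gene 15129), the major β-globin gene of the other mouse haplotype, which is not one of the 10 genes. Its FPKM was 0.276, 8.47, 0.723 and 0.160, from 2, 54, 4 and 1 reads. WT replicate 2 was again the highest, and the 1 read of CD274-null replicate 2 was the only globin read there.

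**Figure D1:**
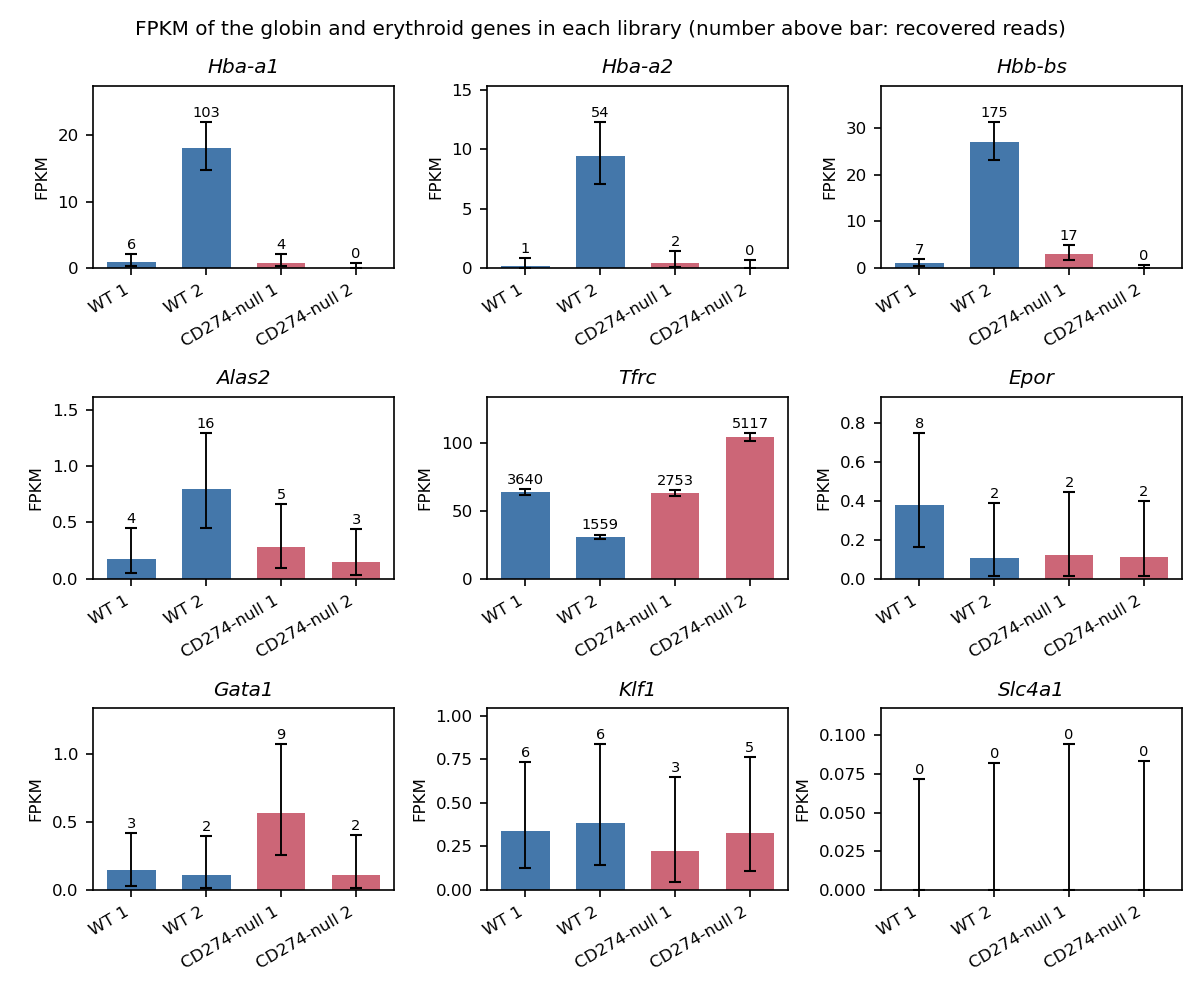
FPKM (vertical axes, each from 0) of the 9 measured genes in the 4 libraries, WT in blue and CD274-null in red. Bars are single libraries, error bars are 95% exact Poisson intervals of the recovered reads, which stand above the bars; the globins peak in WT replicate 2 at 9.42 to 26.9, and Tfrc is lowest there at 31.2.

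Summed over Hba-a1, Hba-a2 and Hbb-bs, globin FPKM was 2.03, 54.4, 4.22 and 0. This was 14, 332, 23 and 0 reads, or 1.28, 34.5, 2.78 and 0 per 1000000 recovered reads. Hba-a1 and Hba-a2 together had an FPKM of 1.08, 27.5, 1.21 and 0. In WT replicate 2, this α-globin FPKM was 1.02 times that of Hbb-bs and 0.778 times that of Hbb-bs and Hbb-b1 together, a β-globin sum that is incomplete without Hbb-bt, and Hba-a1 made up 65.8% of the α-globin FPKM as far as the copies can be divided. In WT replicate 1 and CD274-null replicate 1 the ratio to Hbb-bs was 1.14 and 0.402, but from 23 reads or fewer. Even at its peak, globin was of moderate abundance: Hbb-bs stood at the 77.3 percentile, Hba-a1 at the 69.3 and Hba-a2 at the 54.8 of the genes above 0 in WT replicate 2. Elane, the neutrophil elastase gene of immature myeloid cells, had an FPKM of 2780 there.

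Among the 13230 genes tested, those whose FPKM averaged 0.5 or more, WT replicate 2 stood apart from the highest of the other libraries by 3.70 on the log2(FPKM + 0.5) scale for Hba-a1 (rank 4 of all genes), 3.46 for Hba-a2 (rank 5), 2.97 for Hbb-bs (rank 8) and 2.88 for Hbb-b1 (rank 9). Such an excess of at least 2 was found for 17 genes in this library (0.128%). It was not the library with most such genes, since WT replicate 1 had 63, CD274-null replicate 1 42 and CD274-null replicate 2 52.

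**Figure D2:**
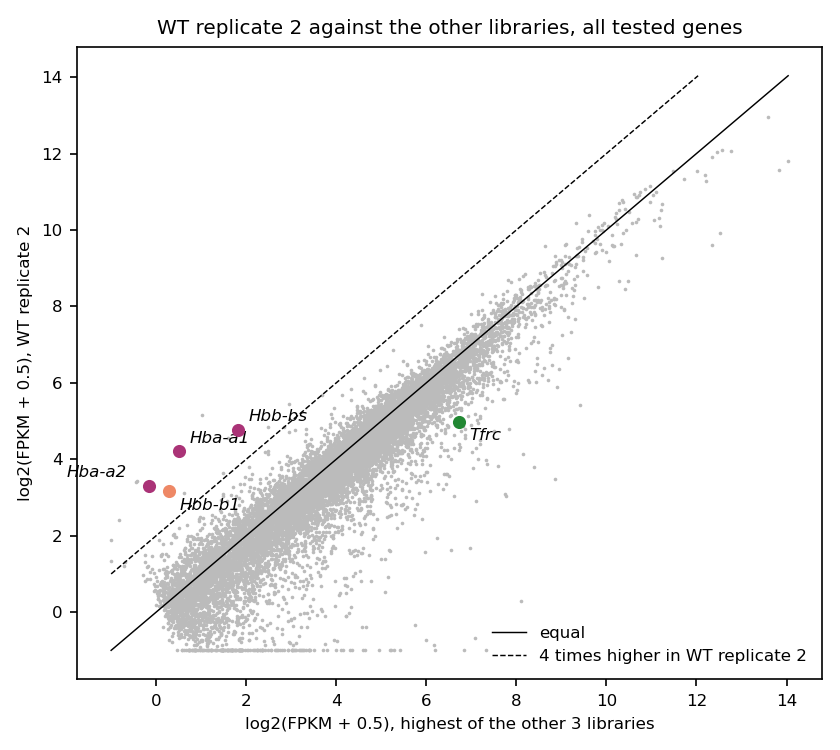
Each point is 1 of the 13230 tested genes, with log2(FPKM + 0.5) in the highest of the other 3 libraries on the horizontal axis and in WT replicate 2 on the vertical axis; the solid line marks equal values and the dashed line an excess of 2. The α- and β-globin genes lie 2.88 to 3.70 above equality, and Tfrc below it, at -1.73.

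The comparison of CD274-null with WT did not separate the groups beyond their spread for any globin. By limma on log2(FPKM + 0.5), the log2 fold change was -2.67 for Hba-a1 (SE 1.18, adjusted p = 0.384), -1.92 for Hba-a2 (SE 1.20, adjusted p = 0.517) and -2.25 for Hbb-bs (SE 1.48, adjusted p = 0.530, all with Benjamini-Hochberg adjustment over all genes). Candidates had to have a fold change above 1.5 and an unadjusted p under 0.01, which 3.63% of all tested genes did (2.39% higher and 1.24% lower in CD274-null). Of the 4 tested members, the 3 globins and Tfrc, 0 were candidates by limma in either direction, 0 had an unadjusted p under 0.05 (13.7% of all genes did) and 0 an adjusted p under 0.05 (0.0756% of all genes). WT replicate 2 supplied most of the mean FPKM with which the 3 globins passed the filter on low values. The groups overlapped for Hba-a2 and Hbb-bs and did not for Hba-a1, where 47.3% of all genes did not overlap in either direction. For Hba-a1 that separation rested on 6 reads in WT replicate 1 against 4 in CD274-null replicate 1.

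These values depended on single libraries. Without WT replicate 2, the log2 fold change was -0.82 for Hba-a1, 0.039 for Hba-a2 and -0.13 for Hbb-bs, and the log2 ratio of summed globin FPKM moved from -3.74 to 0.057. Without WT replicate 1, Hba-a1 (-4.52, adjusted p = 0.216 by limma) and Hba-a2 (-3.89, adjusted p = 0.200) became candidates. Of all genes, 3.47% were candidates without WT replicate 1, 4.79% without WT replicate 2, 1.78% without CD274-null replicate 1 and 1.11% without CD274-null replicate 2. In bulk RNA, fewer cells of a type and less RNA per cell cannot be told apart.

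Alas2 (NCBI gene 11656, chrX:150547417-150570622) encodes the erythroid form of the enzyme that starts heme synthesis. Its FPKM was 0.175, 0.794, 0.286 and 0.152, from 4, 16, 5 and 3 reads. WT replicate 2 was again highest, at 4.54 times WT replicate 1 (1.47 to 18.7), 5.22 times CD274-null replicate 2 (1.49 to 27.9) and 2.78 times CD274-null replicate 1, where the interval of 0.973 to 9.70 includes equality. The groups overlapped, and the mean was below the filter. Without the filter, the log2 fold change was -0.38 (adjusted p = 0.687, limma). The ubiquitous enzyme of this step, Alas1, had an FPKM of 238, 249.9, 216 and 284, and it was not highest in the same library as Alas2.

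Tfrc (NCBI gene 22042, chr16:32608896-32632794), the transferrin receptor gene, was the 1 abundant gene of the 10 and was lowest in WT replicate 2 and highest in CD274-null replicate 2. Its FPKM was 64.0, 31.2, 63.3 and 104.6, from 3640, 1559, 2753 and 5117 reads. It stood at the 80.2 percentile of genes above 0 in WT replicate 2 and at the 91.1 to 95.3 percentile in the other libraries. WT replicate 2 had 0.487 times the level of WT replicate 1 (0.458 to 0.516) and 0.298 times that of CD274-null replicate 2 (0.281 to 0.315), so counting error was small beside the distance between libraries of 1 genotype. WT replicate 1 and CD274-null replicate 1 had overlapping counting intervals, 62.0 to 66.1 and 61.0 to 65.8. The group means were 47.6 ± 23.2 in WT and 84.0 ± 29.2 in CD274-null (SD, n = 2). The log2 fold change was 0.86 (SE 0.40, adjusted p = 0.411, limma), and the groups overlapped. It was 1.37 without WT replicate 1, 0.34 without WT replicate 2, 1.22 without CD274-null replicate 1 and 0.50 without CD274-null replicate 2.

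Alas2 and Tfrc mRNAs carry iron-responsive elements, hairpins with a CAGTG loop that iron regulatory proteins bind when iron is low: this blocks translation of Alas2 and protects Tfrc mRNA from decay. A C, any 5 bases, CAGTG and any further base were searched in this order on the sense strand of the untranslated regions, and the matches are shown because they are what these 2 genes share. Alas2 had 1 match in its 5′ untranslated region of 126 bases, as did 4.49% of 31513 such regions over the same length. Tfrc had 5 in its 3′ untranslated region of 2458 bases, and 0.514% of 5646 regions at least that long held as many over the same length. The matches lie in GRCm38 (GENCODE M21, plus strand, exonic) at chrX:150547458-150547483 for Alas2 and at chr16:32631219-32631244, chr16:32631598-32631623, chr16:32631645-32631670, chr16:32631663-32631688 and chr16:32631710-32631735 for Tfrc. The C and the loop are in capitals, and the stretches printed for sites c and d of Tfrc overlap, although the matched letters do not.
Alas2: ttggttCgtcctCAGTGcagggcaac
Tfrc site a: aattatCggaagCAGTGccttccata
Tfrc site b: cattatCgggagCAGTGtcttccata
Tfrc site c: ttttgcCtaccaCAGTGtctatatcg
Tfrc site d: ctatatCggagaCAGTGatctccata
Tfrc site e: aattatCgggaaCAGTGtttcccata
A match is a string of letters and not a tested element. The FPKM values measure transcripts only, so translation of Alas2 was not measured.

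The erythroid regulators were close to the detection limit in every library. Gata1 (NCBI gene 14460, chrX:7959260-7976663), the zinc finger factor that drives the erythroid programme, had an FPKM of 0.144, 0.109, 0.563 and 0.111, from 3, 2, 9 and 2 reads. CD274-null replicate 1 was highest, with an interval of 0.258 to 1.07 that overlaps those of the other 3 libraries. The ratio of WT replicate 2 to it was 0.193 (0.0203 to 0.933). Klf1 (NCBI gene 16596, chr8:84901982-84905291), the factor that activates adult β-globin, had an FPKM of 0.338, 0.384, 0.221 and 0.327. With 6, 6, 3 and 5 reads, both CD274-null values lay below both WT values, as for 21.8% of all tested genes. The counting intervals of Klf1 overlapped. Within WT, neither gene differed between the libraries beyond counting error: the ratio of WT replicate 2 to WT replicate 1 was 0.757 for Gata1 (0.0633 to 6.61) and 1.14 for Klf1 (0.304 to 4.25).

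Epor (NCBI gene 13857, chr9:21958897-21963576), the erythropoietin receptor gene, had an FPKM of 0.378, 0.107, 0.124 and 0.110. The values stand in the ratio of 4 to 1, 1 and 1 reads, and the transcript length puts them at 8, 2, 2 and 2 reads. The highest library was WT replicate 1, where the interval of 0.163 to 0.745 overlaps those of the other 3. Slc4a1 (NCBI gene 20533, chr11:102348820-102365281), the gene of band 3, the anion exchanger and most abundant protein of the red cell membrane, was listed at 0 in all 4 libraries. At this depth, 3 reads would have been an FPKM of 0.0585 to 0.0765, so a level below that was not detectable. Gata1, Klf1 and Epor failed the filter on low values. In the fit without it, their log2 fold changes were 0.37, -0.16 and -0.24 (adjusted p = 0.650, 0.747 and 0.669, limma).

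Other markers of erythroid cells were low in all 4 libraries. Of 20 listed markers, 18 had an entry, and summed over these FPKM was 4.64, 59.2, 8.47 and 3.05. The 15 that are not globins summed to 2.61, 4.82, 4.25 and 3.05. WT replicate 2 was highest for 7 of the 18, the globins, Alas2 and Rhd among them. It was also the highest library for 29.2% of all genes tested. Rhd, a blood group membrane protein, was at 0.971, 2.98, 2.76 and 2.06 and made up most of the sum without globins in every library but WT replicate 1. Slc4a1, Kel, a blood group protein of the membrane, and Car1, a carbonic anhydrase, were at 0 in all 4 libraries. The purity of the sort for Mac-1 and c-Kit is not given in the sources used here. The part of red cell precursors in the globin values was not tested.

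**Figure D3:**
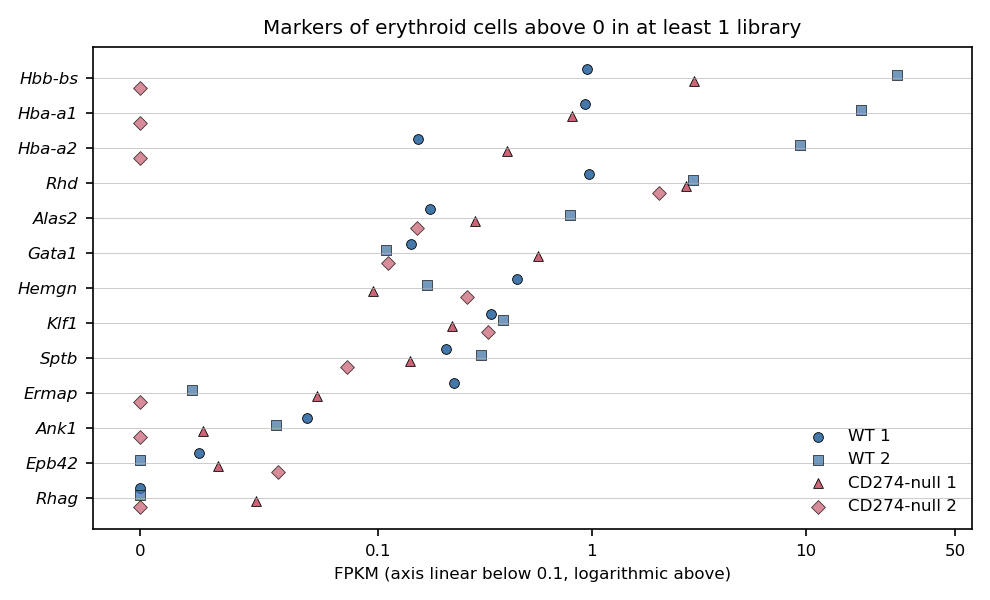
FPKM (horizontal axis, linear below 0.1 and logarithmic above) of the 13 erythroid markers above 0 in at least 1 library, 1 symbol per library, blue for WT and red for CD274-null. WT replicate 2 (blue squares) leads by its widest gaps for Hbb-bs, Hba-a1 and Hba-a2, at 26.9, 18.1 and 9.42.

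Markers of other cells that a bone marrow sort can hold were read beside the globins. The 14 megakaryocyte and platelet markers summed to an FPKM of 31.1, 35.9, 30.1 and 67.6, with Pf4 and Ppbp at 0. In all, 3 of the 14 were at 0 in every library. Of the 8 tested, 6 had a log2 fold change above 0 and 2 below, with a median of 0.16. The 14 markers of basophils, mast cells and eosinophils summed to 86.3, 603, 170 and 566. They were thus high in WT replicate 2, where the globins were high, and in CD274-null replicate 2, where Hba-a1, Hba-a2 and Hbb-bs were at 0. Prg2, a granule protein of eosinophils, led them at 19.6, 395, 41.0 and 236. Of the 14, only Prg2 and Siglecf were highest in WT replicate 2, and of the 9 tested, 8 had a log2 fold change above 0 in CD274-null, as 6757 of the 13230 genes did, with a median of 1.005 beside 0.01. By limma, there were 0 candidates (3.63% of all genes) and 1 marker with an unadjusted p under 0.05 (13.7% of all genes). Without overlap, 3 were higher in CD274-null (25.6% of all genes). Of the 12 markers of the labelled myeloid cells, Mpo (myeloperoxidase) was the 1 candidate, higher in CD274-null (log2 fold change 1.44, adjusted p = 0.251, limma), where 2.39% of all genes were candidates in this direction. The groups did not overlap for 4 of these markers higher and 4 lower in CD274-null, beside 25.6% and 21.8% of all genes. The 12 markers of the macrophages that nurse erythroblasts summed to 173, 157, 110.3 and 118. Of these, 7 were tested, 3 with a log2 fold change above 0 and 4 below, with a median of -0.18. Vcam1, an adhesion molecule of these macrophages, was the 1 candidate and was lower in CD274-null LICs (log2 fold change -0.87, adjusted p = 0.272, limma), as 1.24% of all genes were. The part of any of these cell types in the globin values was not tested.

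The wider pathway was described with 7 lists of 110 genes, of which 108 had an entry, 12 were at 0 in all libraries and 77 were tested. One of the 77 was a candidate, lower in CD274-null LICs, against 1.24% of all genes that were candidates in this direction. By limma, 7 had an unadjusted p under 0.05, against 13.7% of all genes. The groups did not overlap for 14 genes higher and 12 lower in CD274-null, against 25.6% and 21.8% of all genes. The median log2 fold change was 0.04, beside 0.01 for all genes. With the replicate number as a block, 5 of the 77 were candidates, against 3.98% of all genes, and with GC correction as well 3 were, against 2.47%.

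Embryonic globins came first. Hba-x, Hbb-y, Hbb-bh1 and Hbb-bh2, made by the primitive red cells of the early embryo, were at 0 in all 4 libraries. The globin reads of WT replicate 2 were therefore of the adult type.

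Heme synthesis and mitochondrial iron transport were expressed throughout. All 20 listed genes were tested, 0 were candidates (3.63% of all genes), and the median log2 fold change was 0.10. Alas1 and Tmem14c, a porphyrin carrier of the mitochondrion, were the most abundant, the latter at an FPKM of 140.4, 157, 159 and 135. Values of both CD274-null libraries lay above both WT values for 6 genes and below for 2, where 25.6% and 21.8% of all genes did so. Uros (uroporphyrinogen III synthase) had an FPKM of 3.44, 2.87, 6.31 and 6.38 (log2 fold change 0.91, adjusted p = 0.311, limma). Ppox (protoporphyrinogen oxidase) had 29.0, 22.2, 35.8 and 50.02 (0.73, adjusted p = 0.334, limma). Neither passed the test.

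For iron uptake and storage, 15 of 16 genes were tested and 0 were candidates, where 3.63% of all genes were. The groups did not overlap for 1 gene higher and 4 lower in CD274-null, beside 25.6% and 21.8% of all genes. The median log2 fold change was 0.045. Lcn2, a siderophore-binding protein of granulocytes, had an FPKM of 1359, 353, 742 and 822 and was lowest in WT replicate 2, as Tfrc was. Ftl1, the ferritin light chain, had 426, 635, 433 and 656 and was high in both libraries numbered 2. Tfr2, the receptor that erythroid and liver cells use to sense transferrin, had 0.679, 2.18, 1.47 and 2.23.

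The red cell membrane skeleton held the only candidate of the lists. Epb41, protein 4.1, ties spectrin and actin to the membrane and is also made in many other cells. Its FPKM was 35.2, 35.1, 17.3 and 17.1, or 35.1 ± 0.0534 in WT against 17.2 ± 0.128 (SD, n = 2). The log2 fold change was -1.01 (SE 0.21, unadjusted p = 0.00245, adjusted p = 0.251, limma), so it was a candidate that did not pass adjustment. It lost the call when either CD274-null library was left out, at -1.02 and -1.0004. Only 7 of the 22 genes were tested, since 5 were at 0 and the others low. Slc29a1, a nucleoside transporter, was the most abundant beside Epb41 at 32.9, 32.8, 36.0 and 44.9.

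Of 16 erythroid transcription factors, 13 were tested and 0 were candidates, where 3.63% of all genes were. The groups did not overlap for 4 genes higher and 1 lower in CD274-null, beside 25.6% and 21.8% of all genes. The median log2 fold change was 0.09. Myb, which keeps progenitors dividing, had an FPKM of 192, 277, 318 and 368. Lmo2, a bridge of the Gata1 complex, had 116, 221, 160.2 and 183. These 2 factors were abundant in the same 4 libraries in which Gata1 and Klf1 had at most 9 reads. Ikzf1 (Ikaros) had 114, 72.2, 49.4 and 50.03 (-0.86, unadjusted p = 0.0171, adjusted p = 0.299, limma). Gata2, which precedes Gata1 in progenitors and is also made in mast cells and basophils, had 1.89, 18.2, 5.93 and 42.3 and the groups overlapped.

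For the red cell cytoplasm, 15 of 16 genes had an entry and 9 were tested. By limma, 0 were candidates (3.63% of all genes) and 2 had an unadjusted p under 0.05 (13.7% of all genes). The groups did not overlap for 1 gene higher and 2 lower in CD274-null, beside 25.6% and 21.8% of all genes. Gpx1 and Prdx2, which remove peroxide in most cells, had an FPKM of 1418, 1698, 1674 and 1992 and of 51.9, 59.6, 67.3 and 55.2. Hebp1, a heme-binding protein, had 7.82, 9.26, 14.9 and 12.3 (0.64, adjusted p = 0.356, limma). Fam210b, a mitochondrial protein of erythroid heme synthesis, had 3.07, 4.88, 1.63 and 1.92 (-0.95, adjusted p = 0.349, limma). Neither was a candidate.

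Downstream of the Epo receptor, 13 of 16 genes were tested and 0 were candidates, where 3.63% of all genes were. The log2 fold change was above 0 for 3 and below for 10 (6757 and 6473 of all genes), with a median of -0.16. Without overlap, 0 genes were higher and 2 lower in CD274-null, beside 25.6% and 21.8% of all genes. Lyn, a Src family kinase, had an FPKM of 64.1, 68.5, 45.9 and 43.3 (-0.57, adjusted p = 0.327, limma). Ptpn6, a phosphatase that switches the receptor off, had 134, 273, 171 and 202. Pim1, a kinase induced by STAT5, had 283, 17.1, 56.0 and 40.6, so that WT replicate 1 stood far above the other libraries. The log2 fold change of Pim1 changed sign with the library left out, at 1.45 without WT replicate 1 and -2.56 without WT replicate 2.

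**Figure D4:**
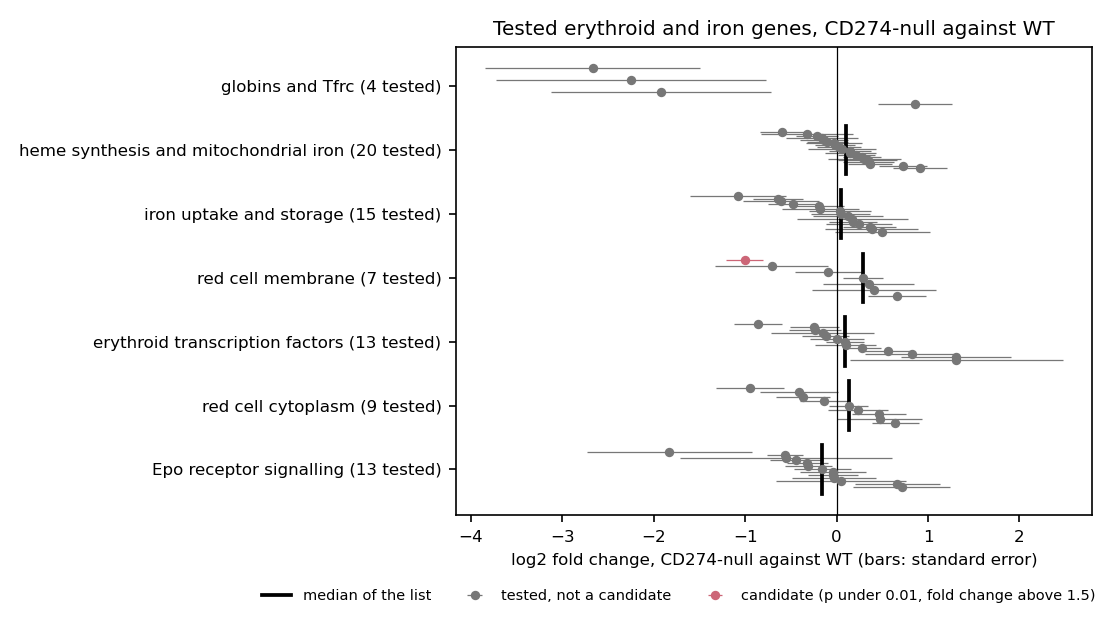
Log2 fold change of CD274-null against WT on the log2(FPKM + 0.5) scale for each tested gene, by list; bars are standard errors, vertical black bars are list medians, and red marks a candidate. No median is drawn for the globins and Tfrc; those of the other lists lie between -0.16 and 0.29, Epb41 is the 1 candidate at -1.01, and the globins have the widest errors, 1.18 to 1.48.

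The genes whose profile over the 4 libraries was most like the mean of the 3 measured globins were found by Euclidean distance of centred log2(FPKM + 0.5). The nearest was NCBI gene 100503686 (distance 0.69), with an FPKM of 0.735, 23.1, 2.50 and 0. The next was NCBI gene 100862145 (0.85), with 1.52, 35.5, 1.49 and 0. No name was found for these numbers. In the deposited table, the former stands directly after Hbb-bs and the latter between Nprl3 and Hba-x, next to the α-globin genes. Whether they hold reads of the globin copies was not tested, and the globin sums above leave them out. Hbb-b1 came next (0.97), followed by Gpat2, a mitochondrial acyltransferase (1.11), at 0.230, 10.1, 0.172 and 0.115, and Zfp941, a zinc finger gene (1.44), at 0.0663, 4.82, 0 and 0.0257. All 5 were highest in WT replicate 2, which follows from choosing them by likeness to the globins.

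For Tfrc, the nearest genes were Tnfrsf18, a TNF receptor family member (distance 0.10), Hk2, hexokinase (0.15), Rpph1 and Snord35a, short non-coding RNAs (0.18 each), and Adpgk, a glucokinase (0.20). Hk2 had an FPKM of 14.7, 7.66, 16.8 and 26.8, and Adpgk had 113, 46.9, 108.6 and 161. With 4 libraries, such likeness describes the order of these libraries alone.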

How the data were processed

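RNA of 4 libraries (2 WT, 2 CD274-null) was analysed. The authors prepared TruSeq v2 libraries, aligned the reads to GRCm38 and deposited 1 FPKM value per gene and library. The submitters' processing notes name CASAVA 1.8.2 and TopHat2 2.0.12. The program, gene lengths and strand setting behind FPKM are not given in the sources used here. The methods speak of RNA from tissue, the labels of sorted cells.

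Genes were named by NCBI gene number (25275 of 27179 matched, RefSeq GRCm38.p6). Whole reads were recovered for 17082 of 17083 genes above 0 in at least 2 libraries (tolerance 0.001 reads), using GENCODE M21 transcript lengths for factors common to all libraries. log2(FPKM + 0.5) was compared by limma 3.58.1 in R 4.3.3 (eBayes with trend, Benjamini-Hochberg) for the 13230 genes whose FPKM averaged 0.5 or more. Fold changes on this scale understate changes of low genes. On simulated data of 13057 genes, 99.5% of 200 changed genes were called (99% at a log2 change of 2 and 100% at 3, in genes above 20 reads), and 0.894% of unchanged genes. The spread of the simulated reads was set in advance and not estimated from these libraries. These rates therefore do not give the share of real changes that could be found here, least of all for genes as variable as the globins. Sequences and counting intervals were handled in Python 3.11.15 with scipy 1.17.1. Of the lists, the text names every candidate, every gene with unadjusted p under 0.05 and groups that do not overlap, the 2 genes of highest mean FPKM, and the 5 genes nearest in profile to the globins and to Tfrc. Gata2, Tfr2, Rhd, Prg2, Siglecf, Vcam1, Mpo, Kel, Car1, Pf4, Ppbp and Elane were named after their values were seen. The genes and lists were chosen with earlier results of these data known. Ahsp was not matched and is not analysed here, and some listed genes are not reported here. Alternatives were pseudocounts of 1 and 0.1, other filters, scalings and moderation, voom on recovered reads, GC correction (loess), the replicate number as a block, and leaving out each library.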

Additional observations from a re-analysis of the deposited data

How the results depend on the processing

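With 2 libraries per group and fewer than 10 reads behind many values, only large differences of the low genes could be seen. The log2 fold changes of Hba-a1, Hbb-bs, Tfrc, Uros, Ppox, Ikzf1, Hebp1, Fam210b, Lyn and Epb41 kept their sign under every alternative that gave a value, and that of Hba-a2 under all but 1, turning to 0.039 without WT replicate 2. Candidates among the tested globins and Tfrc numbered 0 in all fits except the one without WT replicate 1, where they were Hba-a1 (-4.52) and Hba-a2 (-3.89), so that the count ranged from 0 to 2 when 1 library was left out. The log2 ratio of summed globin FPKM was -3.74 with all libraries and -4.69 to 0.057 when 1 library was left out, with the sign lost without WT replicate 2. Without CD274-null replicate 1 the remaining CD274-null library was at 0 and no ratio was formed. Adding Hbb-b1 to the sum, an alternative chosen after seeing the data, gave -3.68. Candidates among the 77 list genes numbered 0 to 7 when 1 library was left out, with 0 without either CD274-null library and 7 without WT replicate 2 (Ikzf1, Socs3, Pim1, Epb41, Fbxl5, Kit and Cbfa2t3). There the lone sample is assumed to vary like the other group. Epb41 lost its call without either CD274-null library, at log2 fold changes of -1.02 and -1.0004. With all genes, candidates numbered 480, and they numbered 170 in a linear model without moderation and 147 to 634 when 1 library was left out, with 235 without CD274-null replicate 1 and 147 without CD274-null replicate 2. The causes were not tested. Under a mean FPKM of at least 5, Hba-a1, Hba-a2, Uros and Fam210b were not tested. Scaling to equal medians moved the median log2 fold change of all genes from 0.01 to -0.01.

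The samples share only a replicate number, and deviations of same-numbered libraries correlated at -0.0151 over 13230 genes. With the replicate block, candidates were 5 of the list genes (Socs3, Epb41, Fbxl5, Gata2 and Cbfa2t3), 526 of all genes and 0 of the tested members. With GC correction and the replicate block they were 3 of the list genes and 283 of all genes.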
